A study of Rattus norvegicus with 24 samples.

Results

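Integrin subunits and laminin chains were followed across 24 RNA-seq libraries of a rat pulmonary microvascular endothelial cell line (PMVEC), cells named for the smallest vessels of the lung. The genes were taken by name: every protein-coding gene of the table whose symbol is Itga, Itgb, Lama, Lamb or Lamc followed by its subunit number or letter. The rule found 34 genes of 34523 in the table, namely 17 integrin alpha subunits, 7 integrin beta subunits, 4 laminin alpha chains, 3 laminin beta chains and 3 laminin gamma chains. The rule itself used no measured value, but the set was chosen with earlier results of these data known. The cells were wild type (WT) or knockout (KO) for Pfkfb3, the gene of an enzyme that sets the level of a sugar bisphosphate known to speed up glycolysis. Both genotypes were cultured for 24 h in normoxia or hypoxia, in medium whose sugar was either glucose or fructose, each at 25 mM, which makes 8 groups of 3 libraries. No group had both sugars or neither, so an effect of fructose and an effect of lacking glucose cannot be told apart. Nothing in the labels states how low the oxygen was, which part of Pfkfb3 was altered, whether the knockout is 1 clone, or whether numbered libraries are separate cultures. All p-values therefore measure the spread between libraries, which may be technical. In 22 of 24 libraries the deviations from the group mean followed libraries of the same replicate number most closely, which the main fit leaves out.

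An integrin is a receptor made of an alpha and a beta subunit that spans the membrane and ties the actin or keratin cytoskeleton to the matrix or to a ligand on another cell. The choice of alpha partner sets the ligand: some pairs bind laminin, others collagen, fibronectin or the counter-receptors of leukocytes. Laminins are large trimers of an alpha, a beta and a gamma chain, and they form the sheet of the basement membrane on which endothelium sits. Vessel laminins are known to carry the alpha 4 or alpha 5 chain with gamma 1, whereas a trimer with the beta 3 chain is best known under epithelia.

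Library totals ran from 14344010 to 23028807 counts. Levels are counts per 1000000 counts of the library (CPM), and differences are log2 fold changes ± standard error from edgeR's quasi-likelihood test, with Benjamini-Hochberg adjusted p over the 14770 genes tested and a threshold of 0.05. Series of 4 values are in the order normoxia glucose, normoxia fructose, hypoxia glucose, hypoxia fructose. Pfkfb3 was still read in KO libraries but at lower levels, 37.2 to 43.0 CPM against 56.7 to 66.5 in WT with glucose in normoxia and 31.9 to 39.1 against 108 to 126 with fructose. In hypoxia it stood at 42.4 to 48.1 CPM in KO against 63.7 to 79.6 in WT with glucose and 53.4 to 62.8 against 143 to 159 with fructose, so the genotypes did not overlap within a medium, while KO hypoxia fructose overlapped WT normoxia glucose. Of 13 endothelial marker genes matched, 5 stayed under 1 CPM in every library, among them Cdh5, the endothelial cadherin, at 0.527 CPM or less, and a further pair of those 5, Emcn and Cldn5, had no count at all. The labelled cell type therefore lacked several of its defining transcripts in both genotypes, while Flt1 and Vwf were read in all libraries. The summed endothelial markers were 59.8 to 128 CPM in WT and 239 to 335 CPM in KO, a sum in which Flt1 weighed most. Not every marker was higher in KO: the mean level dropped from 3.96 to 0.858 CPM for Tek. Kdr averaged 0.215 CPM in WT and 0.0408 CPM in KO, but it reached 0.489 CPM at most and was not among the markers tested. Of 8 tested, 6, 4, 6 and 5 were called higher and 1, 0, 1 and 0 lower in KO. Beside these counts, 46.4, 53.6, 48.4 and 54.5% of all tested genes were called. In bulk RNA fewer cells of a type and less RNA per cell cannot be told apart.

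Compared per kilobase of the deposited gene length, the set was dominated by a few genes. Itgb1, the beta subunit that pairs with most alpha subunits, had the highest mean over the 24 libraries at 494 CPM per kb. Next came the laminin receptor subunit Itga3 at 99.3, the RGD-binding subunit Itgav at 80.4 and the laminin chains Lama5 at 66.0, Lamc1 at 61.4 and Lamb1 at 57.6 CPM per kb. The fibronectin receptor subunit Itga5 followed at 50.1 and Lamb2 at 48.5 CPM per kb. Every library of Itgb1 lay above every library of Itga3 on this scale, and from Itga3 down to Lamb2 the library ranges of neighbours in the order overlapped. The order also differed between genotypes: Lama5 averaged 87.8 CPM per kb in WT, next to Itgav at 94.0, and 44.1 in KO, where Lamb1 averaged 60.4. The remaining tested members averaged between 0.274 (Lama2) and 19.2 (Itgb2) CPM per kb.

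Of the 34 genes, 25 passed the filter on low counts and 9 did not. Itga4, the partner of beta 1 or beta 7 that binds Vcam1, had 0 counts in all 24 libraries. Itga10 reached 0.6004 CPM, Lamc3 0.527, Itgam 0.304, Itgb8 0.216, Itga8 0.187, Itgb3 0.172, Lama1 0.0996 and Itgal 0.0498 CPM at most. These low genes include known partners of subunits described further on: Itgal and Itgam are alpha partners of beta 2, Itga4 is a partner of beta 7 and Itgb3 is the platelet partner of Itga2b. Lama3 and Itgad are not analysed here. Counts over the 25 tested genes describe them, since the filter can keep a gene through the groups in which it is high.

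Promoters are shown for Itga2 and Itgax, the members that rose most with fructose in WT cells, and for Lamb3, which rose most in hypoxia; the values are given further on. They come from RefSeq on the GRCr8 build, run from 250 bases before to 50 bases after the start of the gene, and 26 of the 34 members had an entry. Capitals mark a searched motif. The first, GCGTG, is a core of the sites read by hypoxia-inducible and aryl hydrocarbon receptor factors, and the other, TGAGTCA, is the site of AP-1. Itga2 (chr2:48354460-48354759, minus strand) holds GCGTG from base -89, Lamb3 (chr13:107362303-107362602, plus strand) holds it from base -31, and Itgax (chr1:192149799-192150098, plus strand) holds TGAGTCA from base -56, counted from the start.
Itga2: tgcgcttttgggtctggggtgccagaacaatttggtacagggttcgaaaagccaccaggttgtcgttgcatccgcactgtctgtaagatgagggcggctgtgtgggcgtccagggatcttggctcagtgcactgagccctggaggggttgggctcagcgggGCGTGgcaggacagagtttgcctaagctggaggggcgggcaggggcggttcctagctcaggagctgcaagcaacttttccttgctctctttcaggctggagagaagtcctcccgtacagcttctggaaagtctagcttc
Lamb3: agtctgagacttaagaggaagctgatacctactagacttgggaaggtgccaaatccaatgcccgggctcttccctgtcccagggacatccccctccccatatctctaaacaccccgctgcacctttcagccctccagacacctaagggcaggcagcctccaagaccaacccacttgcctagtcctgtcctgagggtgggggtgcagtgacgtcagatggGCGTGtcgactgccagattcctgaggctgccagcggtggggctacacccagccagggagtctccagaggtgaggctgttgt
Itgax: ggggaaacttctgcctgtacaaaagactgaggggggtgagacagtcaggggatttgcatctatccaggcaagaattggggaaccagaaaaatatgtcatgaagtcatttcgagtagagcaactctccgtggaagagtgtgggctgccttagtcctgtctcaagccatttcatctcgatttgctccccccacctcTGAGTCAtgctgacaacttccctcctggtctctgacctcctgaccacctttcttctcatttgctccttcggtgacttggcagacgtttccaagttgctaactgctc

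Searched on both strands, GCGTG lay in 29.7% of 33469 promoters of this length and in 6 of the 26 member promoters, those of Itga2, Itga4, Itgb8, Lama5, Lamb3 and Lamc1. The related letters ACGTG lay in 19.3% of promoters and in 1 member promoter, that of Lamc3. TGAGTCA lay in 4.63% of promoters and in that of Itgax alone among the 26. The motifs do not overlap one another in the 3 windows. A match describes the letters of the window and is no measurement of binding.

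KO and WT cells differed in most of the set, which was chosen with earlier results of these data known. Of the 25 tested members, 23 passed the test with glucose in normoxia (9 higher and 14 lower in KO), where 46.4% of all tested genes did (22.7% higher, 23.7% lower). The counts were 21 (8 higher, 13 lower) with fructose in normoxia beside 53.6% (25.6% and 28.0%) of all genes, 23 (9 and 14) with glucose in hypoxia beside 48.4% (24.3% and 24.1%), and 20 (8 and 12) with fructose in hypoxia beside 54.5% (25.7% and 28.8%). The median size of change, sign aside, was 1.20, 0.966, 1.37 and 0.858 log2 units among the members and 0.367, 0.438, 0.370 and 0.451 among all tested genes, in the 4 media. In all 4 media 6 members were higher in KO, among them Itgb2, Itgb4, Itgb7, Itgax and Lama4, and 12 were lower (Itgb1, Itgb6, Itga3, Itga6, Itga7, Itga11, Itgav, Lama2, Lama5, Lamb2, Lamb3, Lamc1). No member was called higher in one medium and lower in another. The share of all tested genes called one way in all 4 media was not computed, so these counts describe the members alone. The heat map of changes sets these columns beside the responses to sugar and oxygen.

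**Figure D1:**
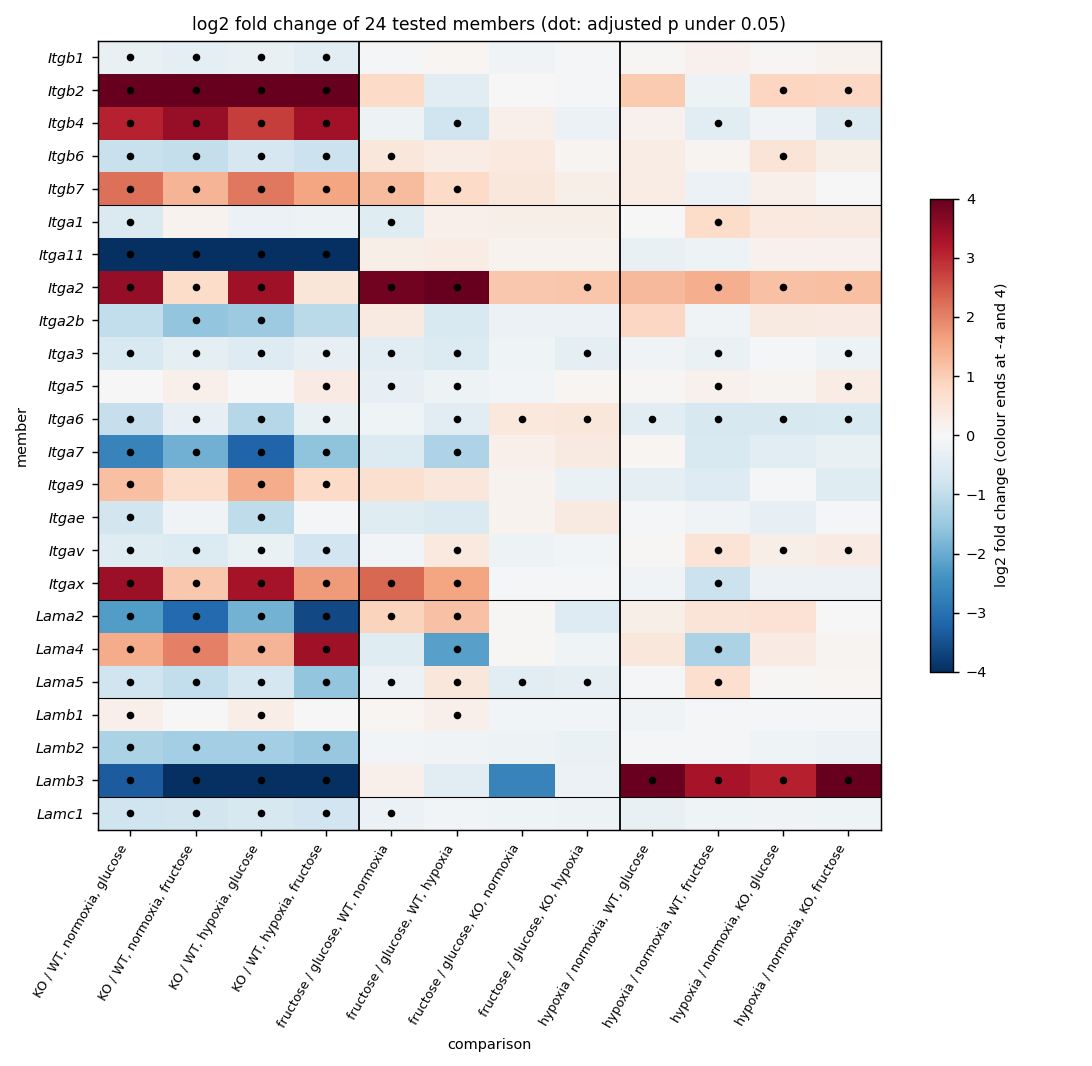
log2 fold change of 24 tested members (rows, grouped as integrin beta, integrin alpha and laminin alpha, beta and gamma) in the 12 simple comparisons (columns); red is higher and blue lower in the group named first, colours end at -4 and 4, and a dot marks an adjusted p under 0.05. The 4 genotype columns at the left carry most dots and hold deep colours, with Itgb2 at 5.84 to 6.86 and Itga11 at -4.53 to -3.997. Itga2 with fructose in WT and Lamb3 in hypoxia are also drawn in deep colours. Colours of Lamb3 that use the KO normoxia fructose group rest on 1 count there.

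Among the beta subunits, Itgb2 changed most. It encodes the beta chain of the leukocyte integrins (ENSRNOG00000001224, chromosome 20, 11777783 to 11815647 in Rnor_6.0). In WT cells Itgb2 stood at 1.19, 0.618 and 0.819 CPM in normoxia glucose, 1.35, 1.89 and 1.04 in normoxia fructose, 1.70, 2.51 and 1.34 in hypoxia glucose and 1.85, 1.25 and 0.464 in hypoxia fructose. In KO cells Itgb2 stood at 90.9, 92.3 and 78.5 CPM in normoxia glucose, 87.7, 89.3 and 82.7 in normoxia fructose, 167, 162 and 134 in hypoxia glucose and 145, 160.5 and 143 in hypoxia fructose. Every KO library lay above every WT library. The log2 differences between KO and WT were 6.64 ± 0.25, 5.84 ± 0.24, 6.45 ± 0.23 and 6.86 ± 0.24 (adjusted p = 1.83e-14, 3.79e-14, 4.88e-15 and 3.57e-15), and the fold over WT was 57.4 at its lowest and 116 at its highest.

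Itgax, an alpha partner of Itgb2 that marks dendritic cells and macrophages, was also higher in KO cells (ENSRNOG00000036703, chromosome 1, 199555722 to 199576932). In WT cells Itgax stood at 5.34, 7.36 and 8.41 CPM in normoxia glucose, 32.9, 38.7 and 26.0 in normoxia fructose, 4.39, 7.38 and 7.16 in hypoxia glucose and 15.6, 21.1 and 13.2 in hypoxia fructose. In KO cells Itgax stood at 72.1, 74.3 and 75.4 CPM in normoxia glucose, 73.0, 69.5 and 71.6 in normoxia fructose, 59.5, 57.3 and 67.6 in hypoxia glucose and 53.3, 60.3 and 62.9 in hypoxia fructose. All KO libraries lay above all WT libraries, and within WT the fructose libraries lay above the glucose libraries. The differences between KO and WT were 3.41 ± 0.18, 1.07 ± 0.16, 3.34 ± 0.19 and 1.70 ± 0.17 (adjusted p = 1.74e-12, 8.57e-06, 2.47e-12 and 1.81e-08) log2 units. Itgax lies within the annotated span of Itgam on the same strand, so their reads cannot be separated where exons overlap, and Itgam itself reached 0.304 CPM at most. Per kilobase, Itgax stood 5.996 ± 2.62 (SD, n = 3) times as high as Itgb2 in WT cells in normoxia with glucose and 0.575 ± 0.0629 times in KO cells. In the other media the same ratio was 15.7 ± 1.71, 2.45 ± 1.02 and 12.1 ± 6.76 in WT and 0.557 ± 0.0298, 0.273 ± 0.0580 and 0.266 ± 0.0262 in KO. The alpha subunit was thus the more abundant transcript of this pair in WT libraries and the less abundant in KO libraries.

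In WT cells Itgb7 stood at 3.34, 1.85 and 3.33 CPM in normoxia glucose, 7.25, 6.66 and 5.72 in normoxia fructose, 3.10, 3.44 and 3.96 in hypoxia glucose and 4.13, 5.63 and 5.82 in hypoxia fructose. In KO cells Itgb7 stood at 13.3, 14.8 and 10.7 CPM in normoxia glucose, 17.5, 17.9 and 17.4 in normoxia fructose, 15.7, 14.96 and 12.5 in hypoxia glucose and 15.6, 21.0 and 13.7 in hypoxia fructose. Itgb7, the beta partner of Itga4 and Itgae on lymphocytes, was higher in every KO library than in every WT library. Its log2 differences were 2.20 ± 0.21, 1.37 ± 0.20, 2.10 ± 0.21 and 1.58 ± 0.20 (adjusted p = 7.65e-09, 3.17e-06, 1.03e-08 and 4.01e-07). Itgae, whose pair with beta 7 binds E-cadherin, went the other way, at 3.10 to 7.42 CPM in WT and 2.30 to 5.27 CPM in KO. It was lower in KO with glucose, at -0.75 ± 0.25 in normoxia (adjusted p = 0.0155) and -1.004 ± 0.25 in hypoxia (adjusted p = 0.00176), and its values with fructose were -0.13 and -0.059 with no call. The normoxia call did not hold without KO normoxia glucose library 2 (adjusted p = 0.0741), or WT normoxia glucose library 2 (0.072), and with the median shift of the 50 nearest genes taken out it was -0.47 (adjusted p = 0.146). Itgae also shares its span with 5 other protein-coding genes, among them RGD1308139, which reached 58.2 CPM, and Gsg2, which reached 42.1 CPM.

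Leukocyte markers were measured beside these genes. Of 16 markers, 11 stayed under 1 CPM in every library and 4 of those, among them Laptm5, Tyrobp and Adgre1, had no count, while Ptprc, which encodes CD45, reached 0.225 CPM at most. The summed markers were 3.93 to 6.84 CPM in WT and 4.47 to 21.4 CPM in KO, and Csf1r alone made up as much as 17.9 CPM of a KO library. Of the 5 leukocyte markers that could be tested, 1 (Csf1r) was higher in KO in each medium, where 22.7, 25.6, 24.3 and 25.7% of all tested genes were called higher. The part of leukocyte markers in the rise of Itgb2, Itgax and Itgb7 was not tested.

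Itgb4, which pairs with Itga6 to anchor keratin filaments in hemidesmosomes, rose as a further beta subunit (ENSRNOG00000005580, chromosome 10, 104523996 to 104561078). In WT cells Itgb4 stood at 21.5, 22.7 and 25.1 CPM in normoxia glucose, 20.5, 18.1 and 18.7 in normoxia fructose, 23.3, 27.6 and 27.7 in hypoxia glucose and 12.004, 12.7 and 14.8 in hypoxia fructose. In KO cells Itgb4 stood at 197, 189 and 194 CPM in normoxia glucose, 212, 228 and 230.0 in normoxia fructose, 169, 168 and 177 in hypoxia glucose and 145, 155 and 138 in hypoxia fructose. KO libraries lay above WT libraries in each medium without overlap. The log2 differences were 3.08 ± 0.083, 3.49 ± 0.085, 2.77 ± 0.081 and 3.35 ± 0.086 (adjusted p = 3.65e-19, 4.9e-20, 2.94e-18 and 1.36e-19). Itgb4 overlaps Galk1, on the opposite strand, over 776 bases, Galk1 reached 411 CPM, and the sources used here do not say whether counting used strand.

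Its alpha partner Itga6 moved the opposite way. In WT cells Itga6 stood at 67.3, 53.0 and 62.1 CPM in normoxia glucose, 51.6, 49.6 and 53.2 in normoxia fructose, 46.0, 44.4 and 47.7 in hypoxia glucose and 30.4, 29.5 and 31.5 in hypoxia fructose. In KO cells Itga6 stood at 34.5, 32.3 and 28.6 CPM in normoxia glucose, 40.8, 44.3 and 42.5 in normoxia fructose, 21.3, 18.7 and 19.5 in hypoxia glucose and 26.5, 24.8 and 30.4 in hypoxia fructose. WT and KO libraries did not overlap in 3 media and did in hypoxia with fructose. The differences between KO and WT were -0.92 ± 0.10, -0.33 ± 0.10, -1.15 ± 0.10 and -0.28 ± 0.10 (adjusted p = 2.61e-08, 0.00467, 8.02e-10 and 0.0163) log2 units, so the gap was wide with glucose and narrow with fructose. The hypoxia fructose call did not hold without KO hypoxia fructose library 2 (adjusted p = 0.0938). The 50 genes nearest to Itga6 had a median change of -0.384 in KO, and with that shift taken out the fructose values turned to 0.050 in normoxia (adjusted p = 0.692) and 0.10 in hypoxia (adjusted p = 0.412). Per kilobase, Itgb4 stood at 0.337 ± 0.05002, 0.326 ± 0.0210, 0.501 ± 0.0524 and 0.380 ± 0.0334 (SD, n = 3) times Itga6 in WT cells and at 5.37 ± 0.518, 4.61 ± 0.128, 7.62 ± 0.540 and 4.77 ± 0.741 times in KO cells.

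Epithelial markers were measured beside Itgb4: of 9, 3 stayed under 1 CPM in every library and 1 of them (Cldn4) had no count, and the sums were 691 to 1196 CPM in WT and 1697 to 2943 CPM in KO. Most of that sum was Krt8, a keratin. Of 6 tested, 4, 5, 5 and 5 were higher and 1, 1, 1 and 0 lower in KO in the 4 media, and the lower marker was the keratin Krt19, which averaged 2.24 CPM in WT and 0.856 in KO. Beside these counts, 46.4, 53.6, 48.4 and 54.5% of all tested genes were called. Cdh1, which encodes E-cadherin, the ligand of alpha E beta 7, went from 0.437 to 1.40 CPM in WT to 7.22 to 13.4 CPM in KO. The part of epithelial markers in the changes of the members was not tested.

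Itgb1 and Itgb6 were lower in KO cells. Itgb1 ran from 1784 to 2176 CPM in WT and from 1474 to 1751 CPM in KO, so the genotypes did not overlap, and its log2 differences were -0.31 ± 0.078, -0.39 ± 0.078, -0.30 ± 0.077 and -0.43 ± 0.078 (adjusted p = 0.00186, 0.000166, 0.00231 and 5.16e-05). Itgb6, which pairs with Itgav to bind latent TGF-beta, stood at 17.3 to 32.8 CPM in WT and 9.52 to 15.9 CPM in KO, with differences of -0.89 ± 0.15, -0.97 ± 0.15, -0.66 ± 0.15 and -0.86 ± 0.15 (adjusted p = 3.25e-05, 6.25e-06, 0.000634 and 2.42e-05). With the shift of its 50 nearest genes taken out, the Itgb6 value with glucose in hypoxia was -0.35 (adjusted p = 0.0624). Of the summed level per kilobase of the 7 protein-coding beta subunits, Itgb1 took 98.5 ± 0.213, 97.9 ± 0.340, 98.2 ± 0.149 and 98.3 ± 0.144% in WT and 87.7 ± 0.20, 85.5 ± 0.205, 84.6 ± 0.529 and 84.8 ± 1.18% in KO (SD, n = 3). That sum leaves out Itgb5, whose row is annotated as a processed transcript. Itgb5 averaged 53.5 CPM per kb in WT and 86.6 in KO in normoxia with glucose, so the Itgb1 shares hold among the 7 alone.

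The collagen receptor subunit Itga11 showed the deepest fall among the integrins (ENSRNOG00000006723, chromosome 8, 67615635 to 67683973). In WT cells Itga11 stood at 20.9, 18.1 and 21.7 CPM in normoxia glucose, 22.4, 23.4 and 21.4 in normoxia fructose, 15.6, 13.8 and 20.7 in hypoxia glucose and 16.9, 17.8 and 19.7 in hypoxia fructose. In KO cells Itga11 stood at 1.18, 0.279 and 1.20 CPM in normoxia glucose, 0.972, 0.934 and 1.09 in normoxia fructose, 1.44, 0.968 and 0.539 in hypoxia glucose and 0.780, 1.56 and 0.859 in hypoxia fructose. The highest KO library was far below the lowest WT library. The log2 differences were -4.45 ± 0.31, -4.53 ± 0.30, -3.997 ± 0.30 and -4.16 ± 0.30 (adjusted p = 2.96e-11, 1.31e-11, 1.04e-10 and 2.97e-11). Itga11 is best known on fibroblasts, and the summed level of 7 fibroblast markers, of which 4 stayed under 1 CPM and Lum and Thy1 had no count, was 5502 to 18768 CPM in WT and 2363 to 4693 CPM in KO. Nearly all of it was Col1a1 and Col1a2, and its part in the fall of Itga11 was not tested.

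Itga7, a laminin receptor subunit typical of muscle, was low in WT and lower in KO. The 8 smooth muscle and pericyte markers, with Rgs5 at 0 in all libraries, summed to 80.7 to 305 CPM in WT and 171 to 298 CPM in KO, and moved in both directions: of 6 tested, 4, 3, 4 and 3 were higher and 1, 1, 1 and 3 lower in KO in the 4 media. The share of all tested genes called there was 46.4, 53.6, 48.4 and 54.5%. Acta2, smooth muscle actin, averaged 91.8 CPM over the WT and 7.83 over the KO libraries, and Des, which encodes desmin, 47.2 and 155 CPM. Their part in the change of Itga7 was not tested. In WT cells Itga7 stood at 2.80, 3.31 and 4.53 CPM in normoxia glucose, 2.42, 2.06 and 2.37 in normoxia fructose, 3.16, 3.59 and 4.44 in hypoxia glucose and 1.41, 0.996 and 1.75 in hypoxia fructose. In KO cells Itga7 stood at 0.411, 0.558 and 0.654 CPM in normoxia glucose, 0.486, 0.498 and 0.884 in normoxia fructose, 0.574, 0.145 and 0.431 in hypoxia glucose and 0.1801, 0.434 and 0.859 in hypoxia fructose. The genotypes did not overlap in any medium. The differences were -2.68 ± 0.42, -1.91 ± 0.41, -3.195 ± 0.43 and -1.604 ± 0.43 (adjusted p = 1.09e-05, 0.000386, 1.19e-06 and 0.00258) log2 units. Itga3, the laminin receptor subunit with the highest level here, fell much less. In WT cells Itga3 stood at 781, 658 and 692 CPM in normoxia glucose, 525, 477 and 511 in normoxia fructose, 655, 654 and 649 in hypoxia glucose and 398, 401 and 371 in hypoxia fructose. In KO cells Itga3 stood at 463, 442 and 473 CPM in normoxia glucose, 426, 399 and 390.1 in normoxia fructose, 449, 434 and 425 in hypoxia glucose and 339, 333 and 352 in hypoxia fructose. Libraries of KO lay under those of WT within each medium. Its differences were -0.62 ± 0.070, -0.38 ± 0.070, -0.52 ± 0.070 and -0.31 ± 0.070 (adjusted p = 1.07e-07, 7.89e-05, 1.52e-06 and 0.00055), and with the shift of its 50 nearest genes (-0.317) taken out the fructose values were -0.058 in normoxia (adjusted p = 0.521) and 0.004 in hypoxia (adjusted p = 0.968).

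Itgav, which joins several beta subunits to bind RGD motifs, was lower in KO in each medium. In WT cells Itgav stood at 334, 269.5 and 291 CPM in normoxia glucose, 266, 254 and 264 in normoxia fructose, 318, 311 and 301 in hypoxia glucose and 342, 367 and 365 in hypoxia fructose. In KO cells Itgav stood at 208, 217 and 217 CPM in normoxia glucose, 183, 187 and 193 in normoxia fructose, 247, 252 and 237 in hypoxia glucose and 230.4, 209 and 239 in hypoxia fructose. The ranges did not overlap within a medium, and the WT hypoxia fructose libraries were the highest. The differences were -0.47 ± 0.075, -0.54 ± 0.075, -0.27 ± 0.074 and -0.78 ± 0.075 (adjusted p = 1.45e-05, 1.53e-06, 0.00392 and 3.74e-09) log2 units, and the value with glucose in hypoxia was -0.004 (adjusted p = 0.973) once the shift of the nearest genes (-0.269) was taken out. Itga5, the fibronectin receptor subunit, was called higher in KO with fructose and had no call with glucose. In WT cells Itga5 stood at 229, 224 and 246 CPM in normoxia glucose, 172, 176 and 176 in normoxia fructose, 238, 239.8 and 249.7 in hypoxia glucose and 181, 186 and 188 in hypoxia fructose. In KO cells Itga5 stood at 224, 227 and 229 CPM in normoxia glucose, 215, 221 and 199 in normoxia fructose, 239, 244 and 225 in hypoxia glucose and 250.1, 258 and 245 in hypoxia fructose. Its libraries overlapped between genotypes with glucose and not with fructose. The differences were -0.024 ± 0.060, 0.22 ± 0.060, 0.029 ± 0.060 and 0.32 ± 0.060 (adjusted p = 0.772, 0.00367, 0.716 and 6.75e-05), and with the shift of its neighbours taken out the normoxia values were -0.15 (adjusted p = 0.0495) with glucose, called lower, and 0.089 (adjusted p = 0.236) with fructose.

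Itga2 and Itga1 bind collagen and laminin with beta 1. In WT cells Itga2 stood at 0.216, 0.225 and 0.164 CPM in normoxia glucose, 3.37, 3.68 and 1.46 in normoxia fructose, 0.644, 0.308 and 0.573 in hypoxia glucose and 8.31, 7.47 and 5.92 in hypoxia fructose. In KO cells Itga2 stood at 3.17, 1.74 and 2.18 CPM in normoxia glucose, 4.31, 5.48 and 5.25 in normoxia fructose, 6.65, 4.599 and 4.15 in hypoxia glucose and 11.9, 11.5 and 9.85 in hypoxia fructose. WT glucose libraries stayed at 0.644 CPM or less, while all other groups were higher. The differences of Itga2 between KO and WT were 3.53 ± 0.40, 0.75 ± 0.29, 3.40 ± 0.34 and 0.50 ± 0.27 (adjusted p = 1.15e-07, 0.0305, 1.17e-08 and 0.123) log2 units, wide with glucose and narrow with fructose. The normoxia fructose call did not hold without KO normoxia fructose library 2 (adjusted p = 0.0868) or 3 (0.0697), or WT normoxia fructose library 3 (0.193), where the change fell to 0.43 at its lowest, and with the neighbour shift taken out it was 0.57 (adjusted p = 0.107).

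In WT cells Itga1 stood at 25.5, 18.8 and 23.2 CPM in normoxia glucose, 13.6, 14.0 and 18.6 in normoxia fructose, 23.4, 21.1 and 24.9 in hypoxia glucose and 22.9, 21.1 and 26.5 in hypoxia fructose. In KO cells Itga1 stood at 13.7, 16.2 and 14.7 CPM in normoxia glucose, 14.3, 17.8 and 20.8 in normoxia fructose, 19.9, 16.4 and 20.6 in hypoxia glucose and 19.2, 20.4 and 26.9 in hypoxia fructose. The genotypes overlapped in both fructose media. The Itga1 differences were -0.58 ± 0.15, 0.14 ± 0.15, -0.22 ± 0.15 and -0.21 ± 0.15 (adjusted p = 0.0031, 0.458, 0.236 and 0.26), so it was lower in KO with glucose in normoxia and had no call elsewhere. With the shift of the nearest genes (0.179) taken out, it was called lower in hypoxia too, at -0.40 (adjusted p = 0.0399) with glucose and -0.39 (adjusted p = 0.0377) with fructose. Itga1 shares 1888 bases on the same strand with Pelo, which reached 106 CPM. Itga9, which binds tenascin C, osteopontin and Vcam1, stood at 0.567 to 1.73 CPM in WT and 1.56 to 3.05 CPM in KO and differed by 1.20 ± 0.31, 0.70 ± 0.30, 1.49 ± 0.31 and 0.75 ± 0.31 (adjusted p = 0.00239, 0.0512, 0.000328 and 0.0405). Its hypoxia fructose call did not hold without KO hypoxia fructose library 2 (adjusted p = 0.12) or 3 (0.0699), or WT hypoxia fructose library 2 (0.0531) or 3 (0.218), with a lowest change of 0.47, and was 0.61 (adjusted p = 0.104) with the neighbour shift taken out. Itga2b, the platelet fibrinogen receptor subunit, stood at 0.808 to 4.01 CPM in WT and 0.304 to 1.40 CPM in KO and differed by -0.99 ± 0.48, -1.57 ± 0.49, -1.46 ± 0.46 and -1.09 ± 0.48 (adjusted p = 0.0983, 0.00869, 0.011 and 0.0563). Its call in normoxia fructose did not hold without KO normoxia fructose library 1 (adjusted p = 0.0547), nor that in hypoxia glucose without KO hypoxia glucose library 2 (adjusted p = 0.0515), or WT hypoxia glucose library 3 (0.078). With the neighbour shift taken out, the hypoxia fructose value was -1.25 (adjusted p = 0.0326), called lower. The 6 platelet markers summed to 0.979 CPM at most in any library.

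**Figure D2:**
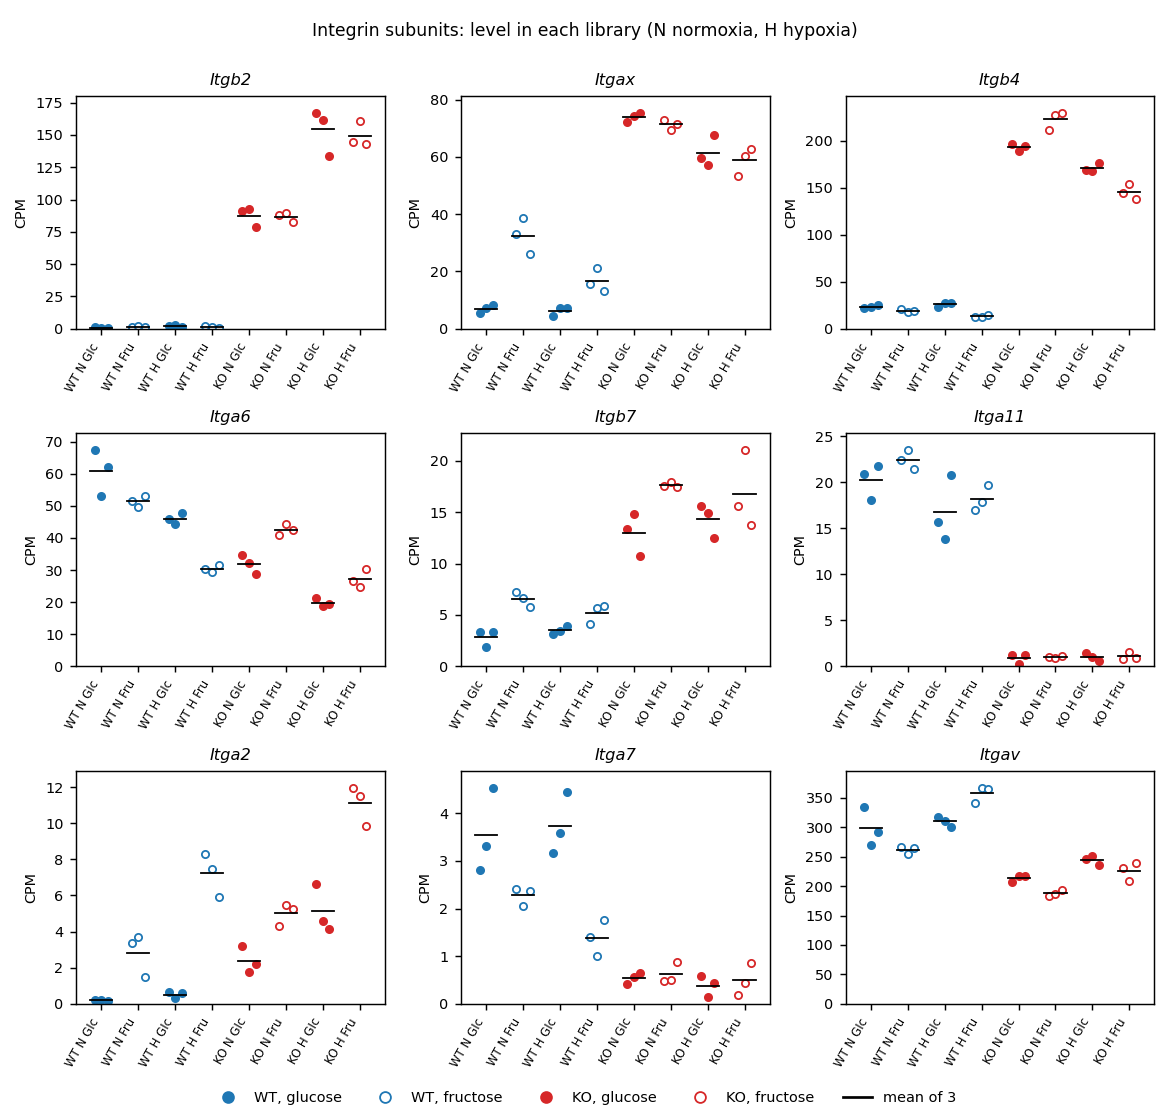
Level in CPM (linear axes from 0) of 9 integrin subunits in each of the 24 libraries, by group; blue is WT, red is KO, filled is glucose, open is fructose, and bars are means of 3. Itgb2 and Itgb4 separate the genotypes in each medium, Itga11 and Itga7 do so in the other direction, and Itgax and Itga2 rise with fructose within WT, where Itga2 goes from 0.201 to 2.84 CPM in normoxia.

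Of the 8 tested laminin chains, 5 were lower in KO in all 4 media (Lama2, Lama5, Lamb2, Lamb3, Lamc1), Lama4 was higher in all 4, and Lamb1 passed with glucose alone. No share of all genes called in all 4 media was computed to set beside these counts. Lama5, the alpha chain of mature vessel laminin, was the most abundant alpha chain (ENSRNOG00000053691, chromosome 3, 175553045 to 175601127). In WT cells Lama5 stood at 1026, 883 and 1089 CPM in normoxia glucose, 793, 749 and 878 in normoxia fructose, 951, 885 and 1104 in hypoxia glucose and 1123, 1264 and 1186 in hypoxia fructose. In KO cells Lama5 stood at 536, 570.5 and 609.5 CPM in normoxia glucose, 421, 426 and 422 in normoxia fructose, 510.4, 597 and 598 in hypoxia glucose and 406, 424 and 475 in hypoxia fructose. WT libraries lay above KO libraries in each medium, with the highest levels in WT hypoxia fructose. The log2 differences between KO and WT were -0.79 ± 0.086, -0.99 ± 0.087, -0.72 ± 0.086 and -1.57 ± 0.088 (adjusted p = 5.46e-08, 9.35e-10, 2.36e-07 and 2.49e-13).

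Lama4, the other alpha chain of endothelial laminins, was higher in KO cells (ENSRNOG00000000599, chromosome 20, 44060731 to 44209614). In WT cells Lama4 stood at 4.85, 4.61 and 7.32 CPM in normoxia glucose, 3.60, 4.33 and 3.53 in normoxia fructose, 8.14, 7.59 and 7.26 in hypoxia glucose and 1.79, 1.79 and 0.876 in hypoxia fructose. In KO cells Lama4 stood at 18.2, 13.3 and 14.6 CPM in normoxia glucose, 18.4, 17.2 and 12.5 in normoxia fructose, 18.3, 21.5 and 16.8 in hypoxia glucose and 20.5, 15.7 and 14.2 in hypoxia fructose. KO libraries lay above WT libraries in each medium, and the lowest 3 values were those of WT hypoxia fructose. The differences were 1.48 ± 0.22, 2.01 ± 0.22, 1.37 ± 0.21 and 3.38 ± 0.25 (adjusted p = 4.84e-06, 5.26e-08, 9.6e-06 and 2.75e-11) log2 units. The 50 nearest genes had a median of -0.736, opposite in sign to the change of Lama4. Of the summed alpha chains per kilobase, Lama4 took 1.04 ± 0.193, 0.895 ± 0.168, 1.48 ± 0.209 and 0.236 ± 0.0850% in WT and 4.89 ± 1.02, 6.71 ± 1.22, 5.96 ± 0.768 and 6.91 ± 1.72% in KO (SD, n = 3).

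Lama2, the alpha chain of muscle and nerve laminin, was near 1 CPM or under it in KO. In WT cells Lama2 stood at 3.23, 2.53 and 2.84 CPM in normoxia glucose, 5.23, 4.44 and 5.60 in normoxia fructose, 4.57, 3.54 and 2.10 in hypoxia glucose and 8.26, 6.28 and 5.82 in hypoxia fructose. In KO cells Lama2 stood at 0.646, 0.418 and 0.708 CPM in normoxia glucose, 0.546, 0.498 and 0.780 in normoxia fructose, 0.909, 0.872 and 0.808 in hypoxia glucose and 0.6004, 0.521 and 0.687 in hypoxia fructose. The genotypes did not overlap. The differences were -2.24 ± 0.30, -3.10 ± 0.30, -1.90 ± 0.28 and -3.61 ± 0.30 (adjusted p = 1.42e-06, 4.87e-09, 5.61e-06 and 3.02e-10) log2 units. The summed alpha chains, a quantity ruled by Lama5, were 89.5 ± 9.51, 72.5 ± 5.79, 88.2 ± 9.77 and 106 ± 6.14 CPM per kb in WT and 53.2 ± 2.98, 40.1 ± 0.570, 53.5 ± 4.55 and 41.3 ± 2.703 in KO.

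The beta chains changed their balance. In WT cells Lamb2 stood at 463, 389 and 517 CPM in normoxia glucose, 385, 354 and 464 in normoxia fructose, 443, 382 and 484 in hypoxia glucose and 354, 332 and 369 in hypoxia fructose. In KO cells Lamb2 stood at 166, 171 and 228 CPM in normoxia glucose, 161, 157 and 169 in normoxia fructose, 163, 147 and 174 in hypoxia glucose and 134, 115 and 149.9 in hypoxia fructose. No KO library of Lamb2, the beta chain of synaptic, kidney and vessel laminins, reached the lowest WT library. The differences were -1.27 ± 0.12, -1.36 ± 0.12, -1.37 ± 0.12 and -1.52 ± 0.12 (adjusted p = 3.92e-09, 8.55e-10, 1.1e-09 and 1.2e-10) log2 units. Lamb1, the common beta chain of early basement membranes, moved little. In WT cells Lamb1 stood at 357, 277 and 333 CPM in normoxia glucose, 344, 328 and 309 in normoxia fructose, 295, 285 and 299 in hypoxia glucose and 297, 313 and 278 in hypoxia fructose. In KO cells Lamb1 stood at 371, 366 and 368 CPM in normoxia glucose, 339.7, 346 and 339 in normoxia fructose, 346, 349.8 and 322 in hypoxia glucose and 307, 317 and 321 in hypoxia fructose. The genotypes overlapped with fructose. Its differences were 0.20 ± 0.079, 0.002 ± 0.079, 0.28 ± 0.079 and -0.029 ± 0.079 (adjusted p = 0.0379, 0.986, 0.00561 and 0.783). The normoxia glucose call did not hold without KO normoxia glucose library 1 (adjusted p = 0.0982) or 2 (0.0924), or WT normoxia glucose library 2 (0.287) or 3 (0.0569), nor with the neighbour shift taken out, where the value was 0.14 (adjusted p = 0.178). Per kilobase, Lamb2 stood at 1.36 ± 0.122, 1.18 ± 0.223, 1.42 ± 0.135 and 1.14 ± 0.126 (SD, n = 3) times Lamb1 in WT and at 0.489 ± 0.0896, 0.455 ± 0.0205, 0.457 ± 0.0564 and 0.404 ± 0.0510 times in KO.

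Lamb3, the beta chain of an epithelial laminin, was nearly absent from KO cells in normoxia (ENSRNOG00000006025, chromosome 13, 112031594 to 112073186). In WT cells Lamb3 stood at 1.62, 1.63 and 1.86 CPM in normoxia glucose, 1.29, 2.22 and 2.13 in normoxia fructose, 28.5, 24.6 and 27.1 in hypoxia glucose and 15.5, 17.7 and 18.4 in hypoxia fructose. In KO cells Lamb3 stood at 0.352, 0.0697 and 0.0545 CPM in normoxia glucose, 0, 0 and 0.0520 in normoxia fructose, 1.10, 1.45 and 1.62 in hypoxia glucose and 0.841, 1.56 and 1.09 in hypoxia fructose. Its counts in KO normoxia were 6, 1 and 1 with glucose and 0, 0 and 1 with fructose, so levels there rest on single reads. The differences between KO and WT were -3.33 ± 0.41 (adjusted p = 3.2e-07) in normoxia glucose, -4.20 ± 0.28 (adjusted p = 7.75e-12) in hypoxia glucose and -3.97 ± 0.28 (adjusted p = 1.45e-11) in hypoxia fructose. In normoxia fructose the KO group held 1 count and the WT group 99, which makes WT 97.3-fold higher, with a 95% Clopper-Pearson interval of 17.1 to 3880.0 that covers counting error only (adjusted p of the fitted change = 1.59e-09).

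Of the gamma chains, Lamc1, which most laminins share, stood at 450.1 to 793 CPM in WT and 294 to 413 CPM in KO. Its differences were -0.79 ± 0.089, -0.73 ± 0.089, -0.65 ± 0.089 and -0.76 ± 0.089 (adjusted p = 9.11e-08, 2.12e-07, 1.63e-06 and 1.11e-07) log2 units, and the hypoxia glucose value was -0.21 (adjusted p = 0.0624) with the shift of its 50 nearest genes (-0.437) taken out.

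**Figure D3:**
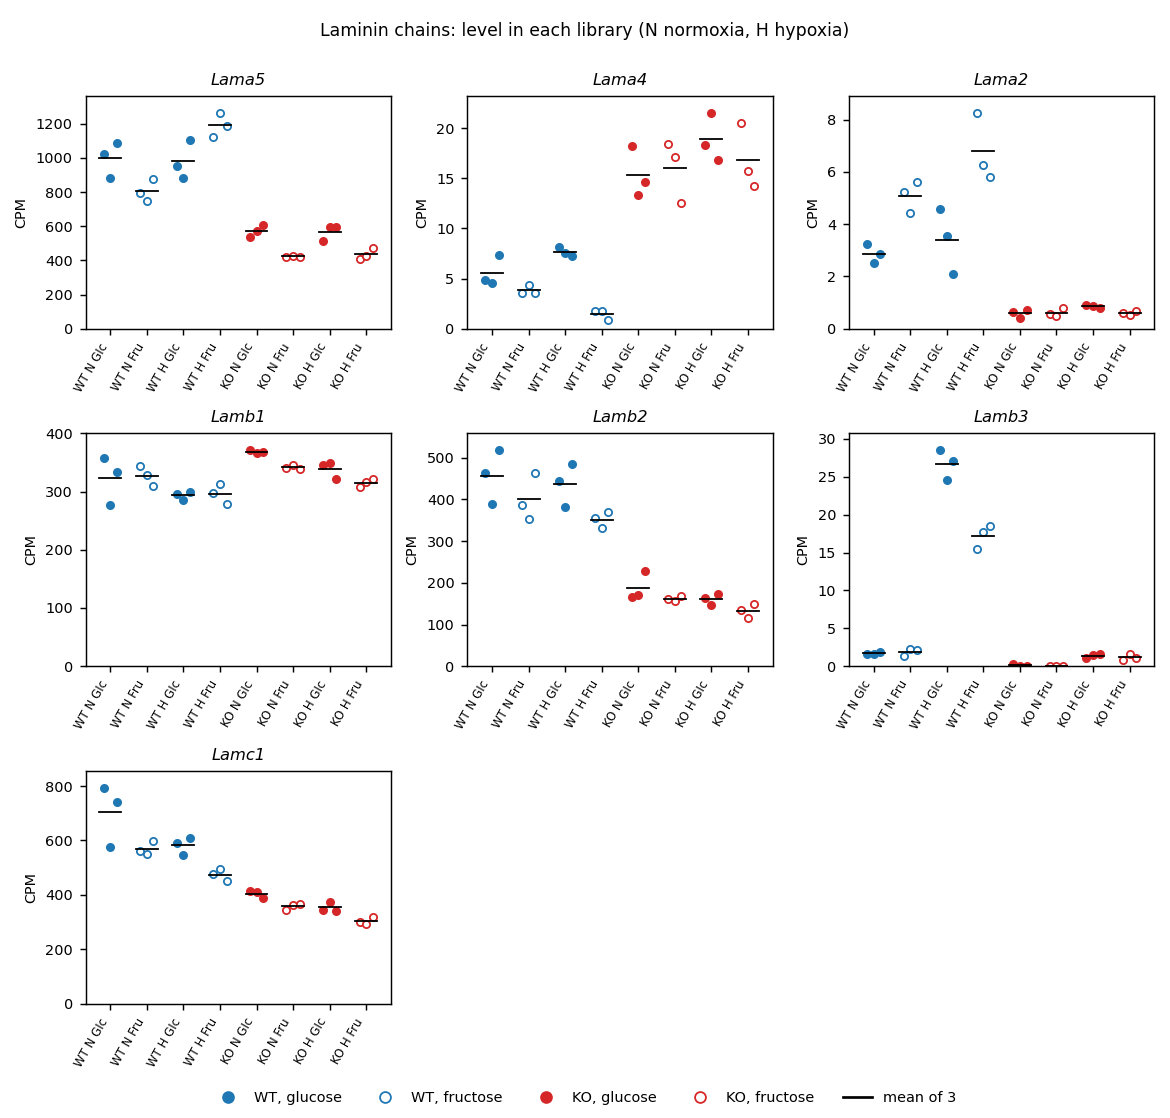
Level in CPM (linear axes from 0) of 7 tested laminin chains in each of the 24 libraries, by group; blue is WT, red is KO, filled is glucose, open is fructose, and bars are means of 3. Lama5, Lama2, Lamb2, Lamb3 and Lamc1 sit lower and Lama4 higher in KO within each medium, and Lamb3 rises in hypoxia, to 26.7 CPM on average in WT with glucose.

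**Figure D4:**
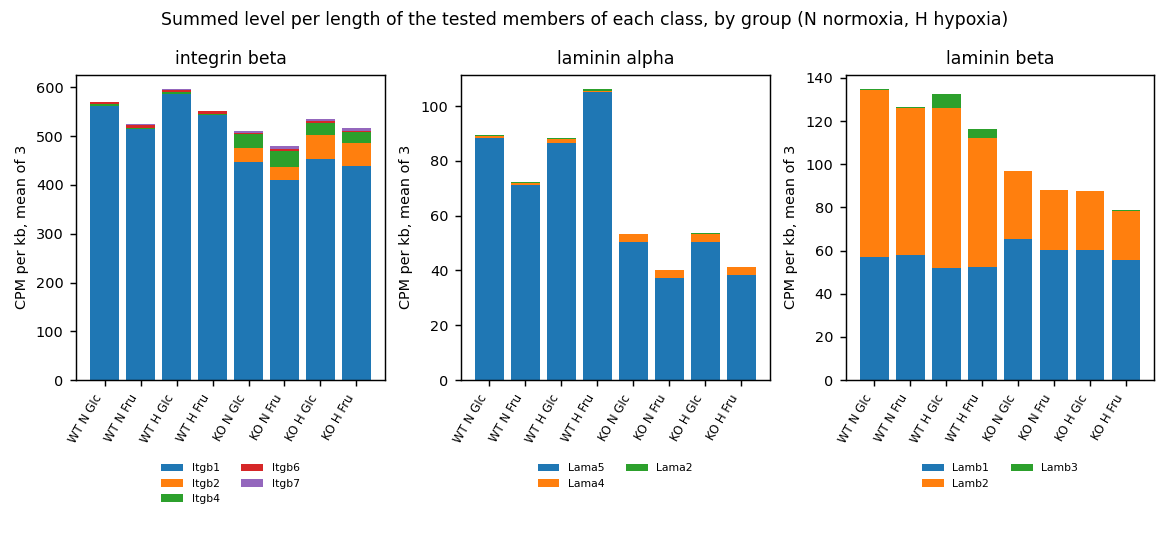
Stacked mean level per kilobase (CPM per kb, n = 3, bars from 0) of the tested integrin beta subunits and laminin alpha and beta chains in the 8 groups. Itgb2 and Itgb4 take a visible share of the stacked beta subunits in KO groups, and Lamb2 is the larger beta chain in WT and Lamb1 in KO, where Lamb1 takes 71.0% of the beta chains in hypoxia with fructose. Itgb5, whose row is annotated as a processed transcript, is not stacked. It averaged 53.5 CPM per kb in WT and 86.6 in KO in normoxia with glucose.

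Fewer members passed with fructose against glucose in KO than in WT cells, and the same held over all tested genes. In WT, 11 of 25 members passed in normoxia (6 higher and 5 lower with fructose), beside 37.9% (19.9% and 17.9%) of all tested genes, and 14 in hypoxia (8 and 6), beside 45.5% (24.6% and 20.9%). In KO, 2 passed in normoxia (1 higher and 1 lower), beside 1.79% (1.14% and 0.65%), and 4 in hypoxia (2 and 2), beside 5.42% (2.69% and 2.73%). The test of the difference between the genotypes, KO response minus WT response, passed for 8 members in normoxia, where 19.1% of all genes passed, and for 11 in hypoxia, where 25.6% did. The WT and KO sugar comparisons share no libraries with each other, but each shares its libraries with the comparisons of genotype above.

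Itga2 responded most, as the values listed above show: all WT fructose libraries exceeded all WT glucose libraries of the same oxygen condition. The rise was 3.85 ± 0.40 in normoxia (adjusted p = 3.72e-08) and 4.01 ± 0.34 in hypoxia (adjusted p = 8.08e-10). In KO the value was 1.07 ± 0.29 in normoxia (adjusted p = 0.0576) and 1.11 ± 0.27 in hypoxia (adjusted p = 0.0151). DESeq2 called the normoxia value too, at 1.07 (adjusted p = 0.0172), and the hypoxia call did not hold without KO hypoxia fructose library 1 (adjusted p = 0.0614), or KO hypoxia glucose library 2 (0.0798) or 3 (0.0848). Between genotypes the response differed by -2.78 ± 0.51 (adjusted p = 0.000296) in normoxia, and by -2.90 ± 0.43 (adjusted p = 2e-05) in hypoxia. Its promoter is among those printed above.

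Itgax rose with fructose in WT by 2.29 ± 0.18 in normoxia (adjusted p = 2.36e-09) and 1.58 ± 0.19 in hypoxia (adjusted p = 4.23e-07), whereas its KO values were -0.054 ± 0.16 and -0.062 ± 0.16 with no call. The difference between genotypes was -2.34 ± 0.24 in normoxia (adjusted p = 5.87e-07) and -1.64 ± 0.25 in hypoxia (adjusted p = 3.2e-05). KO libraries with glucose already exceeded every WT fructose library. Itgb7 rose in WT by 1.27 ± 0.21 (adjusted p = 3.96e-05) and 0.75 ± 0.21 (adjusted p = 0.00508), with KO values of 0.44 ± 0.19 and 0.22 ± 0.19 and no call. Its difference between genotypes passed in normoxia at -0.83 ± 0.29 (adjusted p = 0.0442), but not without KO normoxia fructose library 1 (adjusted p = 0.0739) or 2 (0.0649) or 3 (0.0771), or KO normoxia glucose library 1 (0.0776) or 2 (0.112), or WT normoxia fructose library 1 (0.105) or 2 (0.0757), or WT normoxia glucose library 2 (0.139).

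Among laminins, Lama2 rose in WT by 0.89 ± 0.26 (adjusted p = 0.00801) and 1.18 ± 0.26 (adjusted p = 0.000521), with KO values of 0.036 ± 0.34 and -0.52 ± 0.32, and the difference in hypoxia was -1.70 ± 0.41 (adjusted p = 0.00287). Lama4 was lower with fructose in WT hypoxia, at -2.18 ± 0.25 (adjusted p = 8.52e-08), where the KO value was -0.17 ± 0.21, and the difference between genotypes was 2.01 ± 0.32 (adjusted p = 4.43e-05). WT hypoxia fructose was the group with the least Lama4 and the most Lama5.

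Lama5 was the member whose called direction with fructose differed between oxygen conditions. In WT it fell in normoxia, at -0.24 ± 0.086 (adjusted p = 0.0301), and rose in hypoxia, at 0.47 ± 0.086 (adjusted p = 8.02e-05). In KO it fell in both, at -0.44 ± 0.086 (adjusted p = 0.00509) and -0.39 ± 0.086 (adjusted p = 0.0065). The WT normoxia call did not hold without WT normoxia fructose library 1 (adjusted p = 0.0679) or 2 (0.122), or WT normoxia glucose library 1 (0.108) or 3 (0.136), and the KO hypoxia call not without KO hypoxia glucose library 2 (adjusted p = 0.0534). The difference between genotypes was -0.86 ± 0.12 (adjusted p = 1.08e-05) in hypoxia, and in normoxia -0.20 ± 0.12 with no call. Lamc1 fell in WT normoxia, at -0.24 ± 0.088 (adjusted p = 0.0379), a call lost without WT normoxia fructose library 1 (adjusted p = 0.0799) or 2 (0.102), or WT normoxia glucose library 1 (0.303) or 3 (0.111), with a smallest change of -0.12. Lamb1 was called higher in WT hypoxia, at 0.20 ± 0.080 (adjusted p = 0.0439), with overlapping libraries, a call lost without WT hypoxia fructose library 1 (adjusted p = 0.0954) or 2 (0.174), or WT hypoxia glucose library 1 (0.066) or 2 (0.106) or 3 (0.0846) and under DESeq2 (adjusted p = 0.0753). On plain library totals Lamb1 averaged 293 CPM with glucose and 296 CPM with fructose in WT hypoxia. The size of this fitted change therefore depends on the scaling between libraries. The genotype difference of Lamb1 there, -0.31 ± 0.11 (adjusted p = 0.0464), was lost without KO hypoxia fructose library 1 (adjusted p = 0.0852) or 2 (0.0664) or 3 (0.0665), or KO hypoxia glucose library 1 (0.095) or 2 (0.111), or WT hypoxia fructose library 1 (0.0794) or 2 (0.12), or WT hypoxia glucose library 1 (0.0617) or 2 (0.0855) or 3 (0.0703).

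Of the laminin receptor subunits, Itga6 fell with fructose in WT and rose in KO in hypoxia, and Itga3 fell in both there. Itga3 was lower with fructose in WT, at -0.42 ± 0.070 in normoxia (adjusted p = 3.01e-05) and -0.56 ± 0.070 in hypoxia (adjusted p = 4.88e-07), and in KO hypoxia at -0.35 ± 0.070 (adjusted p = 0.00231), and its KO normoxia value of -0.18 ± 0.070 had no call. The genotype differences of Itga3, 0.24 ± 0.10 and 0.20 ± 0.10, did not pass. Itga6 was lower with fructose in WT hypoxia at -0.41 ± 0.10 (adjusted p = 0.00104), had no call in WT normoxia at -0.17 ± 0.094 (adjusted p = 0.159), and was higher in KO at 0.41 ± 0.10 in normoxia (adjusted p = 0.0214) and 0.46 ± 0.10 in hypoxia (adjusted p = 0.00538). The KO normoxia call did not hold without KO normoxia fructose library 2 (adjusted p = 0.107) or 3 (0.061), or KO normoxia glucose library 2 (0.0543) or 3 (0.16). The difference between genotypes for Itga6 was 0.59 ± 0.13 in normoxia (adjusted p = 0.00281) and 0.87 ± 0.14 in hypoxia (adjusted p = 4.31e-05). Itgb4 was lower with fructose in WT hypoxia at -0.81 ± 0.085 (adjusted p = 2.94e-08), and its genotype differences were 0.41 ± 0.11 (adjusted p = 0.0114) and 0.58 ± 0.11 (adjusted p = 0.000435).

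Itga5 was lower with fructose in WT at -0.34 ± 0.060 in normoxia (adjusted p = 5.91e-05) and -0.20 ± 0.060 in hypoxia (adjusted p = 0.00675), with genotype differences of 0.24 ± 0.085 (adjusted p = 0.047) and 0.29 ± 0.084 (adjusted p = 0.012). That in normoxia did not hold without KO normoxia fructose library 1 (adjusted p = 0.09) or 2 (0.123), or KO normoxia glucose library 1 (0.0751) or 2 (0.0541) or 3 (0.0941), or WT normoxia fructose library 1 (0.0755) or 2 (0.0538) or 3 (0.0802), or WT normoxia glucose library 1 (0.0778) or 3 (0.104). Itgav was higher in WT hypoxia at 0.39 ± 0.074 (adjusted p = 0.000122), with a genotype difference of -0.51 ± 0.11 (adjusted p = 0.000814). Itga1 was lower in WT normoxia at -0.48 ± 0.15 (adjusted p = 0.0145), lost without WT normoxia fructose library 1 (adjusted p = 0.0717) or 2 (0.062), or WT normoxia glucose library 1 (0.0974). Its genotype difference of 0.73 ± 0.22 (adjusted p = 0.0194) was lost without KO normoxia fructose library 3 (adjusted p = 0.0735), or WT normoxia fructose library 1 (0.0557), or WT normoxia glucose library 1 (0.0686). Itga7 was lower in WT hypoxia at -1.24 ± 0.38 (adjusted p = 0.00882), lost without WT hypoxia fructose library 2 (adjusted p = 0.0513). Itgb6 was higher in WT normoxia at 0.46 ± 0.15 (adjusted p = 0.0146), with overlapping libraries, and the call was lost without WT normoxia fructose library 3 (adjusted p = 0.248), or WT normoxia glucose library 1 (0.0511), with a smallest change of 0.20. The Lamb3 genotype difference in normoxia, -2.89 ± 0.93 (adjusted p = 0.0393), rests on a KO fructose group of 1 count and was lost without KO normoxia fructose library 1 (adjusted p = 0.119) or 2 (0.114), or KO normoxia glucose library 1 (0.496), or WT normoxia fructose library 2 (0.0605), with sizes from -1.58 to -4.80, and under DESeq2 (adjusted p = 0.0658).

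**Figure D5:**
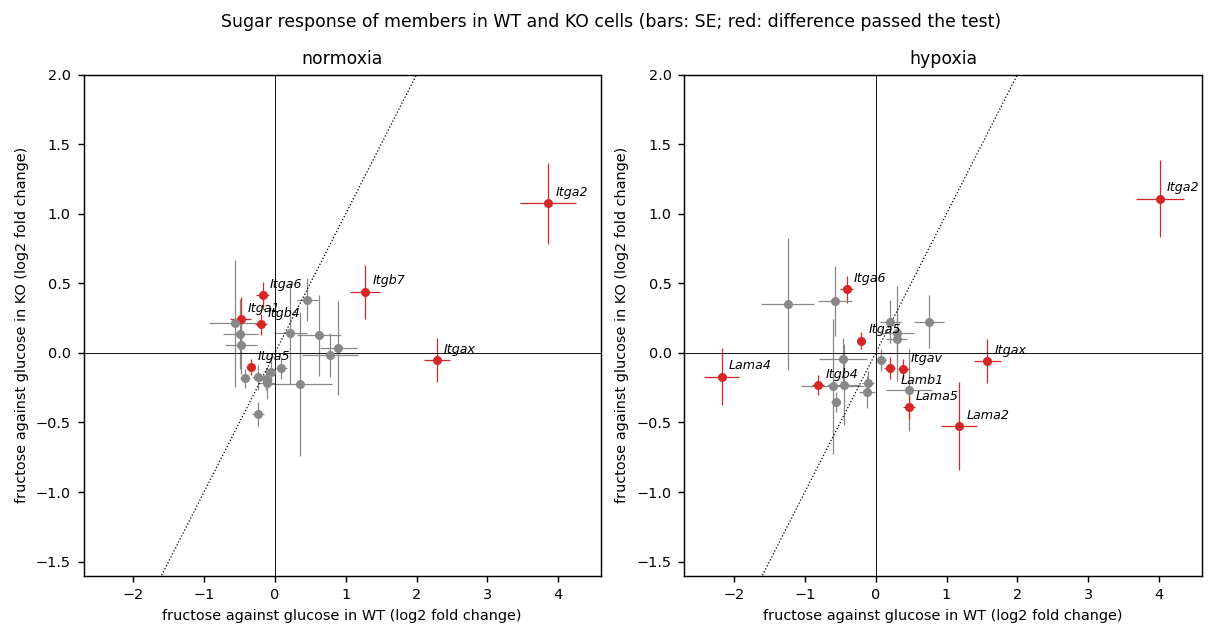
log2 fold change with fructose against glucose in WT (x axis) and in KO (y axis) for the tested members, in normoxia (left) and hypoxia (right); points are estimates, bars are standard errors, the dotted line is equal response, and red with a name marks members whose difference between genotypes passed the test. Points are shown for 24 members, and Lamb3 is left out in normoxia, where a KO group held 1 count. Itga2 lies farthest right in both panels, with 3.85 in WT against 1.07 in KO in normoxia.

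Hypoxia changed between 2 and 11 members, depending on genotype and sugar. In WT, 2 passed with glucose (1 higher and 1 lower), beside 4.81% (3.39% and 1.42%) of all tested genes, and 11 with fructose (6 higher and 5 lower), beside 21.2% (11.3% and 9.91%). In KO, 6 passed with glucose (5 higher, 1 lower), beside 14.0% (7.96% and 6.07%), and 8 with fructose (5 and 3), beside 20.0% (9.71% and 10.3%). Lamb3 and Itga6 passed in all 4, Lamb3 upward and Itga6 downward.

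Lamb3 counts in WT were 30, 29 and 34 in normoxia and 486, 480 and 567 in hypoxia with glucose, and 23, 41 and 35 and 285, 355 and 358 with fructose. In KO they went from 6, 1 and 1 to 23, 30 and 30 with glucose and from 0, 0 and 1 to 14, 36 and 19 with fructose. Hypoxia libraries lay above normoxia libraries in each genotype and sugar. The rise was 3.96 ± 0.27 (adjusted p = 8.08e-11) and 3.29 ± 0.27 (adjusted p = 8.12e-10) in WT with glucose and fructose, and 3.10 ± 0.41 (adjusted p = 7.07e-06) in KO with glucose. In KO with fructose 1 count became 69, a 62.5-fold ratio with an interval of 10.8 to 2504 (adjusted p of the fitted change = 2.04e-07). The difference between genotypes did not pass, at -0.86 ± 0.60 (adjusted p = 0.804) with glucose and adjusted p = 0.153 with fructose. With glucose, the KO libraries in hypoxia (1.10, 1.45 and 1.62 CPM) stood near the WT libraries in normoxia (1.62, 1.63 and 1.86 CPM), a comparison that was not tested.

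Itga2 also rose in hypoxia, by 1.44 ± 0.29 (adjusted p = 0.000564) in WT with fructose, 1.16 ± 0.29 (adjusted p = 0.00817) in KO with glucose and 1.19 ± 0.28 (adjusted p = 0.00313) in KO with fructose. Its value in WT with glucose, from a low base, was 1.29 ± 0.47 (adjusted p = 0.127). The KO glucose call did not hold without KO hypoxia glucose library 1 (adjusted p = 0.0692), or KO normoxia glucose library 2 (0.0559). The promoters of Itga2 and Lamb3 printed above share the letters GCGTG, and so do those of Lama5 and Lamc1, of which Lama5 was called higher in 1 of the 4 hypoxia comparisons and Lamc1 in 0 of them.

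Itga6 fell in hypoxia, at -0.41 ± 0.094, -0.65 ± 0.10, -0.64 ± 0.10 and -0.60 ± 0.10 (adjusted p = 0.00783, 1.55e-05, 5.14e-05 and 6.85e-05) log2 units in WT glucose, WT fructose, KO glucose and KO fructose. The WT glucose call did not hold without WT normoxia glucose library 1 (adjusted p = 0.0862). Itgb4, its partner, fell with fructose, at -0.43 ± 0.087 (adjusted p = 0.000694) in WT and -0.57 ± 0.074 (adjusted p = 3.77e-06) in KO. Itga3 fell with fructose at -0.27 ± 0.070 (adjusted p = 0.0077) in WT, lost without WT hypoxia fructose library 3 (adjusted p = 0.0515), and at -0.20 ± 0.070 (adjusted p = 0.0425) in KO, lost without KO hypoxia fructose library 1 (adjusted p = 0.094) or 2 (0.115) or 3 (0.066), or KO normoxia fructose library 1 (0.168) or 2 (0.087).

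Itgav rose in WT with fructose at 0.56 ± 0.075 (adjusted p = 4.41e-06) and in KO at 0.24 ± 0.075 (adjusted p = 0.0321) with glucose and 0.31 ± 0.075 (adjusted p = 0.00401) with fructose, and the KO glucose call did not hold without KO hypoxia glucose library 1 (adjusted p = 0.101) or 2 (0.116), or KO normoxia glucose library 1 (0.102) or 2 (0.0538) or 3 (0.0804). Itgb2 rose within KO, at 0.86 ± 0.16 (adjusted p = 0.000734) with glucose and 0.83 ± 0.16 (adjusted p = 0.000748) with fructose, with no overlap between normoxia and hypoxia libraries. In WT it had no call, at 1.06 ± 0.37 (adjusted p = 0.114) with glucose, where DESeq2 called it at 1.06 (adjusted p = 0.00529), and -0.19 ± 0.37 (adjusted p = 0.777) with fructose. Itga5 rose with fructose at 0.29 ± 0.060 (adjusted p = 0.00104) in KO and 0.19 ± 0.060 (adjusted p = 0.0275) in WT, the WT call being lost without WT hypoxia fructose library 2 (adjusted p = 0.074) or 3 (0.0714), or WT normoxia fructose library 1 (0.0631) or 3 (0.0794). Itga1 rose in WT with fructose at 0.72 ± 0.15 (adjusted p = 0.00121), and Itgb6 rose in KO with glucose at 0.51 ± 0.15 (adjusted p = 0.0241), lost without KO hypoxia glucose library 2 (adjusted p = 0.0639) or 3 (0.094), or KO normoxia glucose library 1 (0.0762) or 2 (0.0712). Itgax fell in WT with fructose at -0.86 ± 0.17 (adjusted p = 0.000644).

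The laminin chains Lama5 and Lama4 moved in opposite directions in WT with fructose, where hypoxia raised Lama5 by 0.67 ± 0.086 (adjusted p = 2.58e-06) and lowered Lama4, at -1.26 ± 0.25 (adjusted p = 0.000671). With glucose the WT values were -0.040 ± 0.086 for Lama5 and 0.45 ± 0.22 for Lama4, with no call. The test of the difference between the sugars in their response to hypoxia passed in WT for 4 members beside 3.27% of all genes: Lama5 at 0.71 ± 0.12 (adjusted p = 0.00126), Lama4 at -1.70 ± 0.33 (adjusted p = 0.00448), Itgav at 0.51 ± 0.11 (adjusted p = 0.00667) and Itgb4 at -0.61 ± 0.12 (adjusted p = 0.00472). In KO the edgeR test passed for 0 members beside 0.00677% of all genes, with 3 members at an unadjusted p under 0.05 and 1 called by DESeq2. The genotype difference in the hypoxia response passed with fructose for 2 members beside 2.11%, Lama4 at 1.37 ± 0.33 (adjusted p = 0.024) and Lama5 at -0.58 ± 0.12 (adjusted p = 0.0109). The Lama4 call did not hold without KO hypoxia fructose library 1 (adjusted p = 0.0803), or KO normoxia fructose library 3 (0.0626), or WT hypoxia fructose library 3 (0.078), or WT normoxia fructose library 2 (0.0549). With glucose the edgeR test passed for 0 members beside 0.183%, with 1 at an unadjusted p under 0.05 and 0 called by DESeq2.

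The genes that work with integrins and laminins were described from 4 lists. As background, 46.4, 53.6, 48.4 and 54.5% of all tested genes were called between KO and WT in the 4 media. Of 8 tested activators and adaptors, which switch integrins on from inside the cell, 5, 7, 5 and 5 were higher and 1, 0, 1 and 0 lower in KO over the 4 media. Fermt1, the kindlin of epithelia, changed by 3.73, 2.82, 3.36 and 2.60 (adjusted p = 1.33e-07, 8.77e-07, 2.15e-07 and 1.68e-06) log2 units, Tln2 by 0.51, 1.18, 0.56 and 0.86 (adjusted p = 0.00169, 3.97e-08, 0.000674 and 3.72e-06) and the main talin Tln1 by 0.50, 0.44, 0.53 and 0.54 (adjusted p = 0.00223, 0.00485, 0.00127 and 0.000774). Fermt2, the widespread kindlin, had values of 0.31, 0.33, 0.53 and 0.087 (adjusted p = 0.000165, 7.18e-05, 1.15e-07 and 0.235), and Itgb1bp1, which binds the tail of beta 1, of 0.35, 0.23, 0.31 and 0.19 (adjusted p = 0.00196, 0.0265, 0.00414 and 0.0623). With fructose in WT, Fermt1 rose by 1.58 ± 0.40 (adjusted p = 0.00385) in normoxia and Tln2 fell, at -0.84 ± 0.13 (adjusted p = 1.29e-05). The median of the list was 0.330, 0.431, 0.419 and 0.356, beside 0.016, -0.029, 0.011 and -0.032 of all genes.

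Of 19 tested focal adhesion and actin link genes, 6, 4, 9 and 5 were higher and 5, 5, 4 and 8 lower in KO, and the medians were 0.111, 0.027, 0.253 and -0.144. That makes 11, 9, 13 and 13 of the 19 called, beside 46.4, 53.6, 48.4 and 54.5% of all tested genes. The kinase gene Src was lower, at -0.73, -0.97, -0.72 and -1.16 (adjusted p = 1.5e-05, 1.8e-07, 1.41e-05 and 9.19e-09), as were the tensin gene Tns1 at -0.44, -0.63, -0.45 and -0.65 (adjusted p = 1.01e-05, 3.4e-08, 6.45e-06 and 1.68e-08) and the paxillin gene Pxn at -0.60, -0.36, -0.55 and -0.21 (adjusted p = 2.41e-08, 2.85e-05, 8.37e-08 and 0.00601). Ilk, the integrin-linked kinase, was higher by 0.33, 0.20, 0.52 and 0.25 (adjusted p = 5.49e-05, 0.0053, 7.87e-08 and 0.000774). Tgfb1i1, which encodes the paxillin relative Hic-5, changed direction with the sugar, at 1.17, -0.74, 1.30 and -1.52 (adjusted p = 9.05e-09, 3.05e-06, 8.45e-10 and 1.7e-11). It rose with fructose in WT by 2.18 ± 0.11 in normoxia (adjusted p = 6e-13) and 2.61 ± 0.11 in hypoxia (adjusted p = 1.73e-14), and the genotype differences were -1.91 ± 0.16 (adjusted p = 1.39e-08) and -2.83 ± 0.15 (adjusted p = 1.81e-11).

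Of 13 tested basement membrane partners, 3, 3, 3 and 3 were higher and 7, 7, 7 and 7 lower in KO, with medians of -0.590, -0.598, -0.410 and -0.404. Over all tested genes 22.7, 25.6, 24.3 and 25.7% were called higher and 23.7, 28.0, 24.1 and 28.8% lower. Their medians were 0.016, -0.029, 0.011 and -0.032. Bcam, a receptor for laminin alpha 5, was lower, at -3.87, -3.35, -4.45 and -3.90 (adjusted p = 1.32e-10, 5e-09, 1.86e-11 and 1.83e-09). Ntn4, a laminin-like chain that disturbs laminin networks, had 0 counts in all KO libraries, and WT was at least 30.0-, 24.2-, 19.2- and 9.87-fold higher against a floor of 3 counts per group. Ntn4 passed the filter on low counts through WT libraries alone, so it could enter these counts only as lower in KO. The collagen IV chain gene Col4a2 was lower, at -1.081, -0.84, -0.77 and -0.72 (adjusted p = 0.00133, 0.00716, 0.0131 and 0.0169) and so was the heparan sulfate proteoglycan gene Agrn, at -0.95, -0.66, -0.97 and -0.55 (adjusted p = 1.58e-06, 0.000124, 1.22e-06 and 0.000793). Col17a1, a hemidesmosome collagen, was higher by 1.05, 0.69, 0.98 and 1.54 (adjusted p = 5.82e-07, 8.57e-05, 1.43e-06 and 9.74e-10). With fructose in WT normoxia, Bcam fell, at -1.91 ± 0.24 (adjusted p = 1.49e-06), and so did Agrn, at -0.84 ± 0.13 (adjusted p = 1.06e-05). Hspg2 is not analysed here.

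Of 14 tested ligands of integrins, 6, 4, 6 and 6 were higher and 7, 6, 6 and 4 lower in KO, with medians of -0.033, -0.024, -0.032 and -0.004. Over all tested genes 22.7, 25.6, 24.3 and 25.7% were called higher and 23.7, 28.0, 24.1 and 28.8% lower. Their medians were 0.016, -0.029, 0.011 and -0.032. Cdh1 was higher by 4.09, 3.23, 4.17 and 3.22 (adjusted p = 1.54e-13, 1.26e-12, 5.96e-14 and 1.4e-12) and Icam2, a ligand of beta 2 integrins, by 2.46, 2.98, 2.51 and 3.33 (adjusted p = 5.65e-12, 2.9e-13, 2.42e-12 and 3.84e-14). Spp1, which encodes osteopontin, was higher by 0.58, 0.35, 0.70 and 0.24 (adjusted p = 3.35e-06, 0.00106, 2.33e-07 and 0.0159) and rose with fructose in WT by 0.61 ± 0.084 (adjusted p = 2.35e-06) in normoxia. Fbn1, the fibrillin of microfibrils, was lower, at -1.81, -1.23, -1.75 and -0.71 (adjusted p = 1.9e-06, 0.000194, 1.64e-06 and 0.0141). Vcam1, the ligand of alpha 4 and alpha 9 integrins, held 0 or 1 count in each KO group. It passed the filter on low counts through WT libraries alone, so it could enter these counts only as lower in KO. WT was at least 16.4-fold higher in normoxia glucose and at least 21.4-fold in hypoxia fructose, and the ratio was 59.9 (interval 10.4 to 2406) in normoxia fructose and 57.5 (interval 9.89 to 2311) in hypoxia glucose.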

How the data were processed

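RNA was sequenced from 24 libraries, 8 groups of 3 by genotype, oxygen and sugar as the labels give them. The authors deposited whole-number read counts per gene, not normalized, with gene length and biotype; per the submitters' processing notes HISAT2 and DESeq2 were used with the Rnor_6.0 build, while the counter, strand setting and annotation release were not stated there. Library totals ran from 14344010 to 23028807 counts, and low counts limit the precision of Lamb3, Itga2 and Itga7. A further 5 lines held no gene and were not used, and 1 column name with a stray hyphen was taken as WT normoxia glucose 3.

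All 24 libraries were fitted together with edgeR 4.0.16 in R 4.3.3 (robust quasi-likelihood, TMM scaling, filterByExpr with a count minimum of 10 and a total of 15, 14770 genes, 16 residual degrees of freedom). Benjamini-Hochberg adjustment ran over all tested genes in each of 18 comparisons, of which 6 are differences of differences, at a threshold of 0.05. The fit was tested on simulated data in which few genes were raised in a single group and none lowered. That setting does not cover changes as broad as those between KO and WT. Standard errors are the change divided by the root of its F statistic. CPM used plain library totals, and per-kb values the deposited length. Fitted changes used TMM scaling, with factors from 0.909 to 1.064, so small fitted changes can differ from those of the printed CPM. Alternatives were RLE scaling, DESeq2 1.42.0, no low-count filter, only the groups compared, the replicate number as a block, each library left out in turn and, for KO against WT, an offset for the 50 nearest tested genes. Values in every library are given for members called one way in all 4 KO comparisons with a change of at least 1, called one way in at least 2 sugar or 2 oxygen comparisons, or called in a difference of differences; of each gene list up to 5 are named, by calls and smallest change. The members, the marker lists (endothelial, leukocyte, epithelial, fibroblast, smooth muscle and pericyte, platelet) and the partner lists were chosen with earlier results of these data known. Of the 34 members 1, and of the leukocyte markers 1, enter the counts but are not reported here by name. Pecam1, Lama3, Itgad and Hspg2 are not analysed here.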

Additional observations from a re-analysis of the deposited data

Results flagged for a closer look

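For 24 results the effect of one factor differed between groups by the test of the difference itself (edgeR's quasi-likelihood test, adjusted p under 0.05 over all genes). Values are log2 differences between the effects, and their standard errors and adjusted p-values stand in the report.

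The response to fructose in KO minus that in WT was, in normoxia, 0.73 for Itga1, -2.78 for Itga2, 0.24 for Itga5, 0.59 for Itga6, -2.34 for Itgax, 0.41 for Itgb4, -0.83 for Itgb7 and -2.89 for Lamb3. In hypoxia it was -2.9 for Itga2, 0.29 for Itga5, 0.87 for Itga6, -0.51 for Itgav, -1.64 for Itgax, 0.58 for Itgb4, -1.7 for Lama2, 2.01 for Lama4, -0.86 for Lama5 and -0.31 for Lamb1. Itga2 and Itgax were lower and Itga5, Itga6 and Itgb4 higher in both, and these pairs of tests share no libraries. The response to hypoxia in KO minus that in WT, with fructose, was 1.37 for Lama4 and -0.58 for Lama5. The response of WT cells to hypoxia with fructose minus that with glucose was 0.51 for Itgav, -0.61 for Itgb4, -1.7 for Lama4 and 0.71 for Lama5. Some of these calls were lost when a single library was left out. For the fructose response these were Itga1, Itga5, Itgb7 and Lamb3 in normoxia and Lamb1 in hypoxia. For the hypoxia response of KO minus WT with fructose it was Lama4. The Lamb3 value rests on a KO fructose group of 1 count and was also lost under DESeq2. Groups of 3 libraries were too small to look for single outlying libraries.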

How the results depend on the processing

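Of 170 member results called, 3 were lost with DESeq2, 2 with RLE scaling, 12 with no low-count filter, 15 with only the groups compared fitted and 0 with the replicate block. Leaving out single libraries in turn lost 30 of the 170 at least once. Among results with no call, DESeq2 gained 16, RLE 4, only the groups compared 5, the block 19 and the neighbourhood offset 4. With the shift of the neighbouring genes taken out of KO against WT, 9 calls were lost and 3 turned sign: Itga6 with fructose at 0.050 in normoxia and 0.10 in hypoxia, and Itga3 with fructose in hypoxia at 0.004. The cause was not tested.

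Counts of called members moved by over 1.5 times as follows. Fructose in KO normoxia gave 4 with the replicate block (2 in the report). Hypoxia in WT with glucose gave 4 with DESeq2, 1 with only the groups compared and 4 with the block (2). The genotype by sugar difference in normoxia gave 5 with no filter and 5 with only the groups compared (8). Genotype by oxygen with fructose gave 1 with only the groups compared (2), sugar by oxygen in WT 2 (4), and sugar by oxygen in KO 1 with DESeq2 (0). Counts of called partner genes moved for fructose in KO normoxia to 2 with only the groups compared and 7 with the block (4), and for hypoxia in WT with glucose to 3 with DESeq2, 1 with only the groups compared and 4 with the block (0). They moved to 23 for genotype by sugar in normoxia (14) and to 11 for genotype by oxygen with fructose (6) with the block. Genotype by oxygen with glucose gave 2 with DESeq2 and 2 with the block (0), and sugar by oxygen in WT gave 4 with only the groups compared and 13 with the block (8).

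With 1 library left out, called members ranged from 7 to 12 for fructose in WT normoxia, 1 to 3 in KO normoxia and 2 to 4 in KO hypoxia, from 1 to 3 for hypoxia in WT with glucose and 3 to 5 in KO with glucose, from 5 to 8 for genotype by sugar in normoxia and from 1 to 2 for genotype by oxygen with fructose. Called partner genes ranged from 1 to 3 for fructose in KO normoxia and 4 to 8 in KO hypoxia, from 0 to 1 for hypoxia in WT with glucose, 5 to 9 in KO with glucose and 5 to 9 in KO with fructose, from 9 to 15 for genotype by sugar in normoxia, from 0 to 1 for genotype by oxygen with glucose and from 4 to 9 for sugar by oxygen in WT.

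The replicate numbers were not taken to pair the libraries, since the labels do not say what they mark and deviations of same-numbered libraries correlated between -0.055 and 0.285, over 0.1 in 30 of 84 pairs. In 22 of 24 libraries the closest number was their own, so same-numbered libraries resembled one another, though the labels do not say why. The main fit leaves this out. With the block, 19 results gained a call and all 170 called results stayed called. With the block, Itga2 was called with fructose in KO normoxia at 1.11 (adjusted p = 0.00946). At 14344010 counts or more per library, members under about 1 CPM rest on few reads.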

Other observations

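Itgb5, the beta subunit that pairs with Itgav as a vitronectin receptor, matches the name pattern but is annotated as a processed transcript, so it was left out of the counts and shares above. Its libraries stood at 193 to 223 CPM in WT and 334 to 338 in KO in normoxia with glucose, 179 to 206 and 333 to 349 in normoxia with fructose, 206 to 222 and 408 to 485 in hypoxia with glucose, and 178 to 206 and 389.7 to 425 in hypoxia with fructose. All KO libraries lay above all WT libraries. The log2 differences between KO and WT were 0.71 ± 0.079, 0.73 ± 0.079, 1.09 ± 0.079 and 0.97 ± 0.079 (adjusted p = 7.23e-08, 2.9e-08, 4.5e-11 and 2.38e-10) by edgeR's quasi-likelihood test. Within KO cells it rose in hypoxia by 0.42 ± 0.078 (adjusted p = 0.000464) with glucose and 0.30 ± 0.078 (adjusted p = 0.0087) with fructose, and WT values in hypoxia were 0.043 ± 0.079 and 0.062 ± 0.079 with no call. The difference between genotypes in the hypoxia response did not pass (adjusted p = 0.294 with glucose and 0.32 with fructose). No sugar comparison called it. Per kilobase it averaged 53.5 CPM per kb in WT and 86.6 in KO in normoxia with glucose, so beside it the shares of Itgb1 among the beta subunits would be lower in both genotypes.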
